A study of Labroides dimidiatus with 18 samples.

Results

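Forebrain slices of cleaner wrasse caught at Clam Gardens were compared with slices of fish from the site labelled Osprey collection, called Osprey here. The fish were chosen by their site labels, with earlier results of these data known. They were the 3 Clam Gardens fish (fish 8, 9 and 10), classed as high density, and the 7 Osprey fish (fish 1 to 7), classed as low density. Together these are 10 of the 18 fish profiled. All were female Labroides dimidiatus, 1 library was made per fish, and the labels give neither ages nor a treatment beyond the site of capture. The remaining 8 fish came from The Crest (high density, n = 5) and Watson's Bay (low density, n = 3). Heads lay in RNAlater for 3 hours on average, and death followed capture by 6 to 28 minutes. Counting from the front of the brain, the second 300 µm slice was taken and the 3' ends of its transcripts were sequenced. Each density is represented here by a single site, so density and site cannot be told apart. The labels do not say what the density counts.

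The bluestreak cleaner wrasse is a reef fish that lives by picking parasites and mucus off other fish, its clients, which it serves at fixed stations. In bony fish the pallium, the roof of the forebrain, holds a lateral area (Dl) that has been compared with the mammalian hippocampus and a medial area (Dm) compared with the pallial amygdala. Dl is known for spatial and relational memory and Dm for emotional learning. The slice holds both along with pieces of the septum and striatum, so each value is an average over several territories. A lower value in such a mixed sample can come from fewer cells of a type or from less RNA per cell, and these cannot be told apart.

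The deposited tables pair no identifier with a gene name or a position, so the function of a gene model is not described and markers of brain cell types could not be checked. Gene models are predicted genes of Labroides and carry identifiers that begin with Ldim. At most 2 identifiers that were higher and 2 that were lower at Clam Gardens are given for each table. Other models are called by their rank when the tested models are ordered by p.

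The libraries were shallow. Clam Gardens fish 8, 9 and 10 had 37116, 26092 and 42702 counts in gene models, and the Osprey fish had 29681 to 54648, with a median of 36801. Most records fell outside gene models, 68.7% at Clam Gardens and 68.8% at Osprey, and 22.2% and 21.2% were not aligned. The libraries of the groups differed in other ways. Gene models took 5.87% ± 0.0713 of records at Clam Gardens and 6.41% ± 0.397 at Osprey (SD, n = 3 and 7, two-sided exact permutation p = 0.0333, adjusted p = 0.0889 over 8 measures). Records of low mapping quality made up 3.26% ± 0.122 at Clam Gardens and 3.54% ± 0.131 at Osprey (exact permutation p = 0.05, adjusted p = 0.100). None of the 8 measures passed after adjustment with all 10 fish. The smallest p this test can give here is 0.0167. The ratio of tilapia to Labroides counts and the share held by abundant models reached it, at an adjusted p of 0.0667 each. Not passing thus says little about a measure. Without Osprey fish 7 the ratio and the share passed, as did the records in gene models and of low mapping quality (exact permutation adjusted p = 0.0476 each). Their part in the differences between gene models was not tested, beyond fits that take the share of records in gene models or the library size as a covariate.

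Of 706 gene models with enough counts to test, 8 (1.13%) differed between the sites. At Clam Gardens 6 rose (0.850%) and 2 fell (0.283%), by edgeR's quasi-likelihood test with Benjamini-Hochberg adjustment at a threshold of 0.05. In each of the 8, all 3 Clam Gardens fish lay outside the range of the 7 Osprey fish. Over all tested models this held for 30 higher (4.25%) and 14 lower (1.98%). At an unadjusted p under 0.05 there were 95 models (13.5%), 56 of them higher (7.93%) and 39 lower (5.52%). The filter was applied anew with a fish left out, so the number of models tested changed. Without Clam Gardens fish 9 the test called 10 higher and 3 lower of 830 models. Without Clam Gardens fish 10 it called 5 higher and 1 lower of 771. Levels are given as CPM, counts scaled to a common library size over the tested models.

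**Figure D1:**
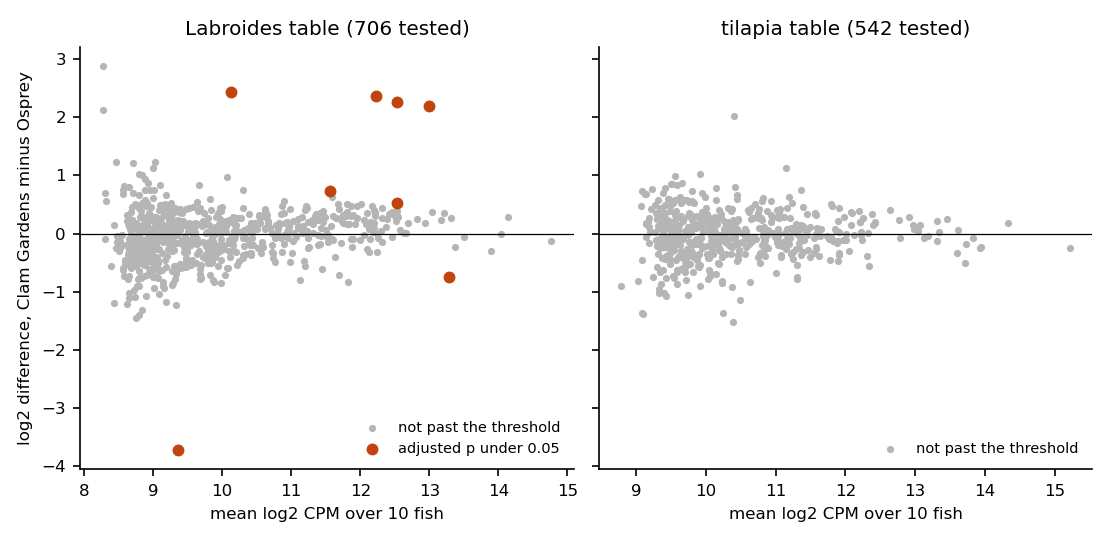
Log2 difference (Clam Gardens minus Osprey, vertical axis) against mean log2 CPM over the 10 fish (horizontal axis), 1 point per Labroides gene model on the left and per tilapia transcript on the right. Coloured points passed an adjusted p of 0.05: 8 of 706 gene models and none of 542 transcripts. Of the 8, 4 sit together above a log2 difference of 2.

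The 4 models of smallest p all rose about 5-fold, and all 4 had the same order among the Clam Gardens fish. Ldim_g12384, the first, had 3821, 20195 and 9473 CPM in Clam Gardens fish 8, 9 and 10, against 817 to 2848 CPM in Osprey fish, with a median of 2401. The counts behind these values were 99, 350 and 273 in the Clam Gardens fish and 19 to 83 in the Osprey fish. Every Clam Gardens fish was above every Osprey fish, but fish 8 stood close to the Osprey range while fish 9 was far beyond it. The mean was 11163 ± 8317 CPM at Clam Gardens and 2132 ± 725 CPM at Osprey (SD, n = 3 and 7). The model was thus 5.17-fold higher, a log2 difference of 2.37 with SE 0.30 (edgeR adjusted p = 1.16e-05) and a 95% interval of 1.74 to 3.00. This SE and interval draw on the spread of other models too and do not measure that of this model alone.

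Ldim_g22111, the second, had 5172, 23772 and 11486 CPM in Clam Gardens fish 8, 9 and 10. In Osprey fish it had 1376 to 4119 CPM, with a median of 2915. The order of the Clam Gardens fish was again 9, 10 and 8, and the groups did not overlap. Its means were 13477 ± 9459 CPM at Clam Gardens and 2766 ± 1049 CPM at Osprey, a 4.82-fold difference (log2 2.27, SE 0.30, edgeR adjusted p = 1.16e-05). The third model was 4.60-fold higher, at 18277 ± 12179 CPM in Clam Gardens fish and 3935 ± 1480 CPM in Osprey fish. The fourth was less abundant and 5.39-fold higher, at 2640 ± 1792 CPM at Clam Gardens and 473 ± 177 CPM at Osprey.

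**Figure D2:**
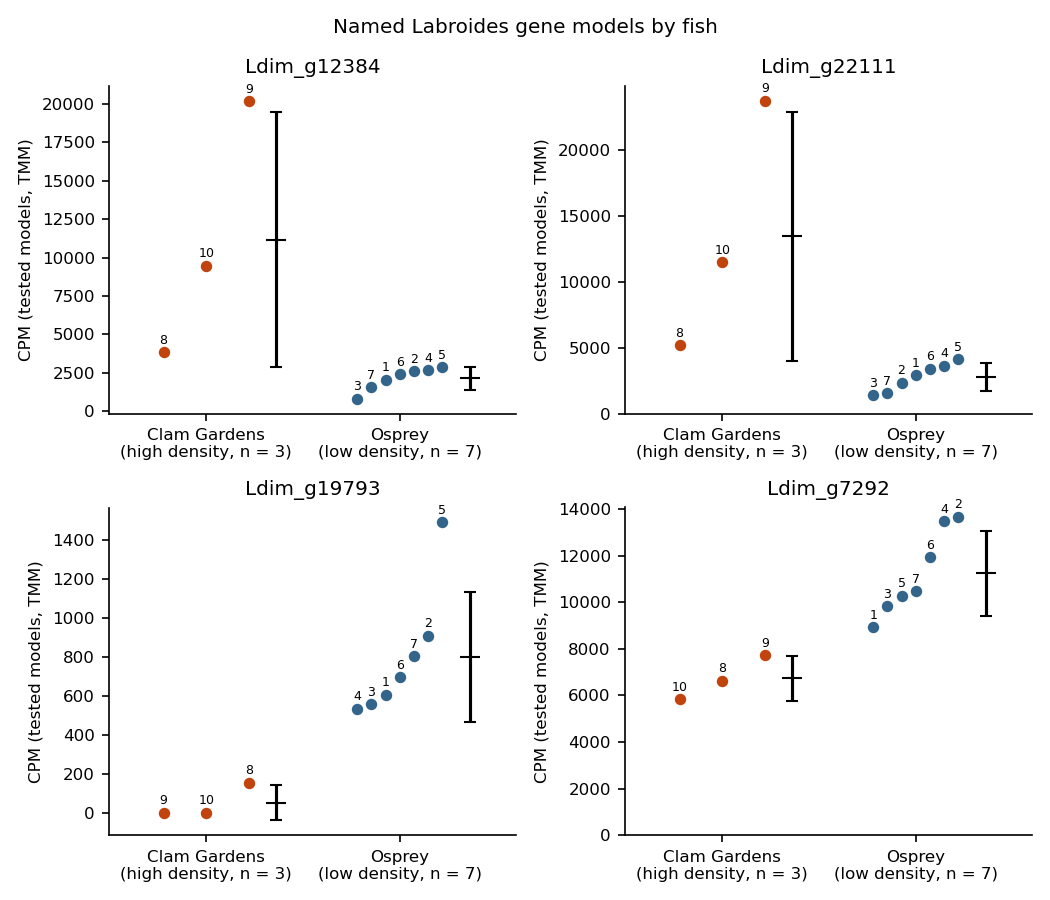
CPM by fish for the 4 named gene models, with Clam Gardens on the left and Osprey on the right of each panel. Points are fish, labelled by number and sorted by value, and the bars beside them give the mean and SD. In Ldim_g12384 and Ldim_g22111 fish 9 is the highest at 20195 and 23772 CPM, and in Ldim_g19793 and Ldim_g7292 the 3 Clam Gardens fish lie below all 7 Osprey fish.

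The size of these differences depended on which Clam Gardens fish were kept. Without fish 8 the 4 models were 6.80-fold, 6.23-fold, 5.96-fold and 6.87-fold higher. Leaving out fish 10 moved them less, to 5.54-fold, 5.16-fold, 4.78-fold and 5.85-fold. Without Clam Gardens fish 9 the 4 models were 3.16-fold, 3.05-fold, 3.04-fold and 3.54-fold higher, and each still passed (edgeR adjusted p at most 0.000319). With edgeR's robust dispersion the first 3 no longer passed (adjusted p = 0.0812, 0.0812 and 0.0816), and the fourth did (adjusted p = 0.000568). With library size as a covariate all 4 passed, with log2 differences of 2.01 to 2.16. Fish 9 is the shallowest of the 10 libraries and fish 10 is the deepest of the Clam Gardens fish, and both were higher in the 4 models than fish 8. The part of depth in these differences was not tested beyond that covariate.

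Taken as a share of all counts in gene models, the 4 held 1.19% in Clam Gardens fish 8 (exact Clopper-Pearson 95% interval 1.08 to 1.31), 5.30% in fish 9 (5.03 to 5.58) and 2.69% in fish 10 (2.54 to 2.85). In Osprey fish they held between 0.306% in fish 3 (0.250 to 0.372) and 0.920% in fish 5 (0.820 to 1.03), with a median of 0.685%. The intervals cover counting error only, since PCR copies of a molecule were not set apart. Against the Osprey mean of their summed CPM, fish 8 was 1.83 times, fish 9 was 8.57 times and fish 10 was 4.28 times as high. Osprey fish themselves ranged from 0.467 to 1.44 times that mean.

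**Figure D3:**
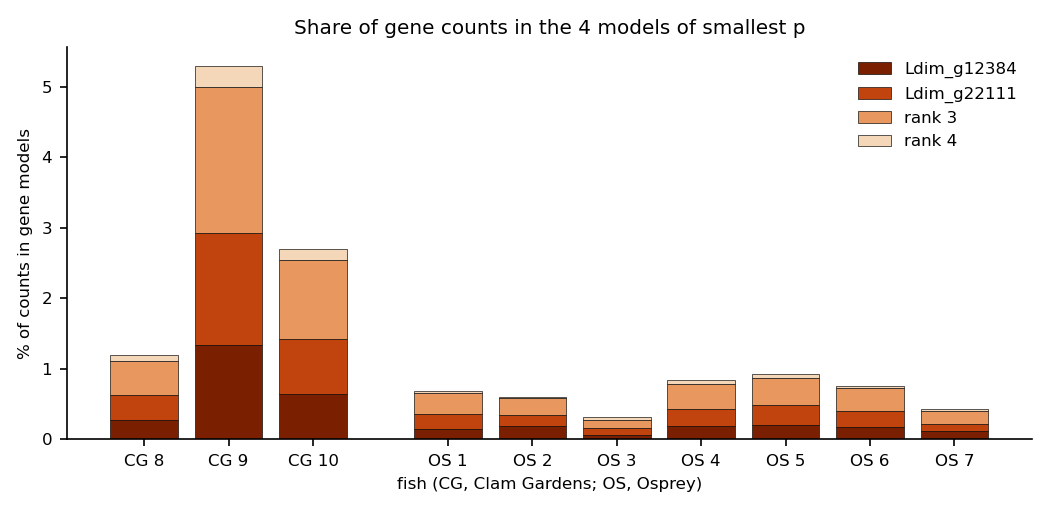
Share of counts in gene models (vertical axis, percent) held by the 4 models of smallest p, stacked by model, for each fish (horizontal axis). The 3 Clam Gardens fish reach 1.19% to 5.30% and no Osprey fish passes 0.920%, while the larger models keep similar proportions of the stack.

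Within their sum, the Clam Gardens fish lay inside the Osprey range for each of the 4 models. Ldim_g12384 took 22.4% to 25.3% of the sum in Clam Gardens fish and 18.8% to 30.2% in Osprey fish. Ldim_g22111 took 28.8% to 30.3% in Clam Gardens fish, inside the range of the Osprey fish, which reached 31.7%. The third model took 39.1% to 41.9% at Clam Gardens and 38.6% to 43.7% at Osprey. The fourth, with the fewest counts, took 5.48% to 6.56% at Clam Gardens and varied more at Osprey, at 2.79% to 10.9%. Among Osprey fish it departed from the others in fish 3, the lowest in the first 3 models. There it was above the Osprey median, at 473 CPM against 434, from 11 counts. Fish 4 and 5 were the highest Osprey fish in both the third and the fourth model. The identifiers of 3 of the 4 carry numbers no more than 3 apart. The files do not say whether the 4 are near-identical copies among which the counting could divide reads, so their separate levels are uncertain.

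The 2 other models that rose changed far less and varied little among fish. The model of rank 7 had 3937, 4443 and 3956 CPM in Clam Gardens fish 8, 9 and 10, against 2060 to 2893 CPM in Osprey fish, with a median of 2536. The 3 Clam Gardens fish were close to each other and all above the highest Osprey fish. The fitted difference was 1.65-fold (log2 0.73, SE 0.16, edgeR adjusted p = 0.0104). The call ended without Clam Gardens fish 8 (adjusted p = 0.0568), without fish 9 (0.0620), with library totals in place of TMM scaling (0.0503), with no expression filter (0.0824) and with the share of records in gene models as a covariate (0.552). The log2 difference was 0.49 with that covariate and 0.63 to 0.73 in the other 4 fits.

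The model of rank 8 had 7256, 7905 and 7356 CPM in Clam Gardens fish 8, 9 and 10. In Osprey fish it had 4729 to 5786 CPM, with a median of 5132. The groups were well apart for their spread, with a coefficient of variation of 4.65% at Clam Gardens and 7.27% at Osprey. Its difference was 1.44-fold (log2 0.53, SE 0.13, edgeR adjusted p = 0.0441), just inside the threshold. It kept its direction in all 10 fits that left out 1 fish, which groups that do not overlap nearly fix in advance. Its edgeR adjusted p ran from 0.0302 to 0.160 over these fits, and it passed in 1 of them, the one without Osprey fish 6. It also failed with library totals (0.146), no filter (0.474), library size as a covariate (0.0540), the share of records in gene models as a covariate (0.368) and in the fit of all 18 fish (0.162). The log2 difference was 0.43 with library totals and 0.50 to 0.54 under the others of these settings, against 0.53.

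Of the 2 models that fell, Ldim_g19793 was nearly absent from Clam Gardens fish. It had 4 counts in fish 8 and 0 in fish 9 and 10, against 13 to 34 counts in Osprey fish, with a median of 19. A count of 0 allows up to 3 counts, which is 173 CPM in fish 9 and 104 CPM in fish 10. In CPM, fish 8 had 154, and Osprey fish had 535 to 1490, with a median of 694. All 7 Osprey fish were above that limit and above fish 8.

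The mean of Ldim_g19793 was 51.5 ± 89.1 CPM at Clam Gardens and 799 ± 333 CPM at Osprey (SD, n = 3 and 7; log2 -3.72, SE 0.60, edgeR adjusted p = 0.000225). The size rests on few counts. Without fish 8 the remaining Clam Gardens fish have no counts at all, and a limit of 3 counts over both puts them at least 12.3-fold lower than the Osprey mean. Without fish 10 the log2 difference was -3.02 (edgeR adjusted p = 0.00926), and with limma-voom it was -4.10 and did not pass (adjusted p = 0.201).

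Ldim_g7292, an abundant model, fell to 6639, 7732 and 5830 CPM in Clam Gardens fish 8, 9 and 10, against 8936 to 13686 CPM in Osprey fish, with a median of 10497. The highest Clam Gardens fish, fish 9, was below the lowest Osprey fish, fish 1. Its means were 6733 ± 955 CPM at Clam Gardens and 11246 ± 1841 CPM at Osprey. Clam Gardens fish had 0.596 of the Osprey level (log2 -0.75, SE 0.16, 95% interval -1.07 to -0.42, edgeR adjusted p = 0.00833). The call ended without Clam Gardens fish 10 (log2 -0.63, adjusted p = 0.101) and in a fit of all 18 fish with a term for each site (adjusted p = 0.295, or 0.188 without Watson's Bay fish 19).

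For each of these 8 models a two-sided exact permutation test over the 10 fish gave p = 0.0167, unadjusted. That is the smallest value that 3 fish against 7 can give when the smaller tail is doubled, so adjusted over 706 models this test could not pass.

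Most gene models differed little. The median log2 difference over the 706 was -0.03, the quartiles were -0.30 and 0.21, and 25 models were beyond 2-fold in either direction, 12 higher and 13 lower. Large differences were concentrated among scarce models: 15 of the 177 least abundant were beyond 2-fold, against 3 of the 177 most abundant. The error ran the same way, with a median SE of 0.43 in the least abundant and 0.18 in the most abundant. Of the 8 calls, 6 were among the 177 most abundant models and 0 among the 177 least abundant.

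Abundant models leaned towards Clam Gardens. The 177 most abundant models had a median log2 difference of 0.16 and the 177 least abundant one of -0.16. Among the 100 models with the highest mean share of gene counts over the 10 fish, 70 had a positive difference, 30 were higher and 5 lower at an unadjusted p under 0.05, and 5 rose and 1 fell past the threshold (6.00%, against 1.13% of all tested models). With library totals in place of TMM, the median over all models moved to -0.12, and these 2 medians became 0.06 and -0.25, and 62 of the 100 were positive. At an unadjusted p under 0.05 there were then 32 higher and 60 lower, in place of 56 and 39 with TMM, so the balance of directions depends on the scaling. It also changed with single fish left out, though the models tested then changed too. With TMM there were 36 higher and 47 lower of 698 without Osprey fish 5, and 47 and 51 of 665 without Osprey fish 7. Without Clam Gardens fish 8 there were 40 and 41 of 777. The 177 most abundant models had the higher median under both scalings. A change of scaling moves all models by nearly the same amount, so this order could hardly have changed.

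The same counts can be read as shares of each library. The lists of abundant models were ranked over these same 10 fish, so models high at Clam Gardens could enter them for that reason. The shares of such lists, here and below, and their p-values are thus no separate support for the lean. The 100 most abundant models held 39.0% of gene counts in Clam Gardens fish 8, 42.2% in fish 9 and 37.4% in fish 10 (exact 95% interval 37.0 to 37.9). In Osprey fish they held 34.7% to 35.8%, with 35.8% (35.4 to 36.2) in the highest, fish 7. The groups did not overlap, and the Osprey fish varied far less than the Clam Gardens fish. The means were 39.5% ± 2.42 at Clam Gardens and 35.3% ± 0.449 at Osprey (SD, n = 3 and 7, exact permutation p = 0.0167, the smallest possible; adjusted p = 0.0667).

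The 4 models of smallest p did not account for all of this gap. With these taken out of the table, the remaining most abundant models held 37.8% ± 1.78 at Clam Gardens and 34.9% ± 0.426 at Osprey, and the groups still did not overlap (exact permutation p = 0.0167, unadjusted). The number of gene models detected was 5147 ± 800 at Clam Gardens and 5842 ± 594 at Osprey (exact permutation p = 0.167, adjusted p = 0.222). That difference was smallest without Clam Gardens fish 9, at -321, and largest without fish 10, at -1116. With every library thinned to 26092 counts it was 4301, 4399 and 4830 in Clam Gardens fish 8, 9 and 10, and 4746 to 4937 in Osprey fish, so fish 10 lay inside the Osprey range and the others below it (exact permutation p = 0.05, adjusted p = 0.0800).

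**Figure D4:**
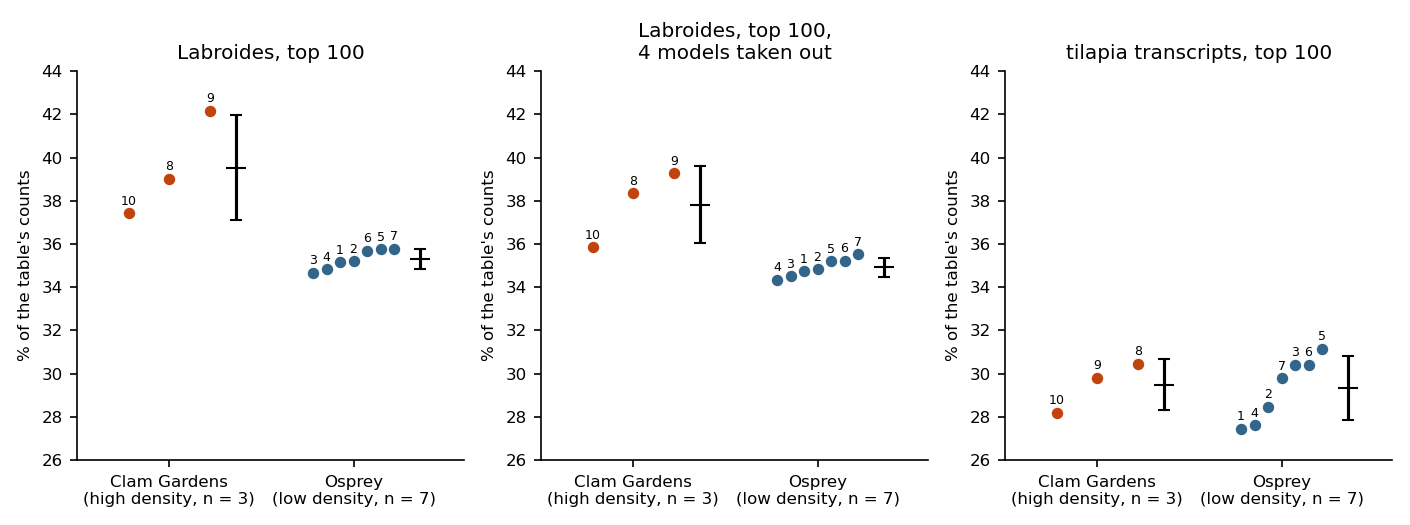
Percent of counts (vertical axis, drawn from 26% to 44%) held by the 100 most abundant rows in each fish: Labroides gene models, the same with the 4 models of smallest p taken out, and tilapia transcripts. Points are fish with their numbers, and the bars give the mean and SD. The groups are apart in both Labroides panels and overlap in the tilapia panel.

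Clam Gardens fish resembled Osprey fish about as much as they resembled each other. Across the 706 models, Pearson's r of log2 CPM between pairs of fish had a median of 0.874 within Clam Gardens (3 pairs), 0.865 between the sites (21 pairs) and 0.886 within Osprey (21 pairs). These are correlations across gene models, which are not independent replicates. Fish 9, the library with the fewest counts, was the least like the Osprey fish, with a median r of 0.835 to them, against 0.871 for fish 8 and 0.874 for fish 10.

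Few models were seen at 1 site only with any weight of counts. Of 12679 gene models with a count in any of the 10 fish, 995 had counts in Clam Gardens fish alone and 4355 in Osprey fish alone, but the Clam Gardens fish together had 105910 counts and the Osprey fish 278974. A single model with at least 10 counts was missing from all Osprey fish. It had 86 counts in Clam Gardens fish 8, 2 in fish 9 and 0 in fish 10, so nearly all came from 1 fish. In the other direction, 56 models had 0 counts at Clam Gardens and 10 to 20 over the Osprey fish. At the Clam Gardens depth, equal expression would have given 3.80 to 7.59 counts, against the 3 that a count of 0 allows, so these absences rest on little depth.

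The same fish were also counted against transcripts of Nile tilapia, another bony fish, which gave a second table from the same libraries. In Clam Gardens fish, 87.2 ± 2.13 counts fell in tilapia transcripts for every 100 in Labroides gene models, against 77.2 ± 5.82 in Osprey fish (SD, n = 3 and 7, exact permutation p = 0.0167, adjusted p = 0.0667). Of 542 transcripts tested, 0 (0.00%) passed with edgeR, and 58 (10.7%) had an unadjusted p under 0.05, 24 higher (4.43%) and 34 lower (6.27%). DESeq2 also called 0, with 90 of 18966 at an unadjusted p under 0.05, and limma-voom called 0, with 50 of 542. The groups did not overlap in 9 transcripts that were higher (1.66%) and 14 that were lower (2.58%).

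The transcript of smallest p, ENSONIT00000014467.1, had 4052, 1974 and 4199 CPM in Clam Gardens fish 8, 9 and 10. In Osprey fish it had 976 to 2292 CPM, with a median of 1579. Fish 8 and 10 were above all Osprey fish, and fish 9 was inside their range. The Clam Gardens level was 2.18-fold the Osprey level, with a log2 difference of 1.13, SE 0.24 and a 95% interval of 0.63 to 1.62 (edgeR adjusted p = 0.0668). It passed in 5 of 21 alternative fits. It did so without Clam Gardens fish 9 (log2 1.38, edgeR adjusted p = 0.00436) and without Osprey fish 5 (log2 1.22, edgeR adjusted p = 0.0261). With all fish it passed under no filter (0.00911), a CPM filter (0.0298) or robust dispersion (0.0256). Among the fits it failed were DESeq2 (adjusted p = 0.989), limma-voom (0.139) and edgeR without Clam Gardens fish 8 (0.448) or fish 10 (0.341).

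ENSONIT00000024213.1 had 1443, 1264 and 1229 CPM in Clam Gardens fish 8, 9 and 10, against 337 to 900 CPM in Osprey fish, with a median of 776. All 3 Clam Gardens fish were above the Osprey range, but the difference did not pass (log2 1.03, SE 0.29, edgeR adjusted p = 0.272). On the other side, ENSONIT00000005683.1 had 500, 711 and 922 CPM in Clam Gardens fish, against 737 to 2021 CPM in Osprey fish, with a median of 1541 (log2 -1.14, SE 0.31, adjusted p = 0.272). Here the groups overlapped, since Osprey fish 5, the lowest, was under Clam Gardens fish 10. ENSONIT00000011115.1 had 1665, 1579 and 1639 CPM in Clam Gardens fish and 2087 to 3379 CPM in Osprey fish, with a median of 2907 and no overlap (log2 -0.75, SE 0.21, adjusted p = 0.272).

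Gene models and tilapia transcripts are not matched in the files, so the direction of a single model could not be checked in the second table. None of the 542 transcripts had as large a positive difference as the 4 models: the largest was 4.04-fold, against 4.60-fold for the smallest of the 4. The order seen in those models, with fish 9 above 10, 10 above 8 and 8 above every Osprey fish, occurred in 11 of the 706 gene models and in 0 of the 542 transcripts. The 4 models that gave the order are among the 11. Only 9 transcripts (1.66%) were higher without overlap, against 30 gene models (4.25%), so the 0 says little. The 100 most abundant tilapia transcripts held 29.5% ± 1.17 of that table's counts at Clam Gardens and 29.3% ± 1.48 at Osprey (exact permutation p = 0.883), without a gap between the sites in that table. The difference between the tables was not tested.

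The Crest and Watson's Bay form the other pair of a high-density and a low-density site and share no fish with Clam Gardens and Osprey. In a fit of all 18 fish with a term for each site, 996 models were tested. Clam Gardens and Osprey differed in 11 of them (1.10%), 10 higher and 1 lower at Clam Gardens. The Crest and Watson's Bay differed in 0 (0.00%), with 58 (5.82%) at an unadjusted p under 0.05. Watson's Bay holds fish 19, whose library had 3868 gene counts.

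In this fit Ldim_g12384 averaged 10454 ± 7725 CPM at Clam Gardens, against 2007 ± 659 at Osprey, and 7842 ± 5975 CPM at The Crest, against 2329 ± 1589 at Watson's Bay (SD, n = 3, 7, 5 and 3). The log2 differences were 2.37 (SE 0.43, edgeR adjusted p = 0.00679) and 1.47 (SE 0.52, edgeR adjusted p = 0.361). For Ldim_g22111 they were 2.27 (SE 0.45) between Clam Gardens and Osprey and 1.02 (SE 0.53) between The Crest and Watson's Bay, and for the models of rank 3 and 4 they were 2.20 and 2.44 against 1.15 and 0.90. All 4 models thus had positive values in both pairs, but in the second pair none passed. Without Watson's Bay fish 19 the values of the second pair were 1.25, 0.72, 0.97 and 0.87, and again none passed. These sites overlapped: The Crest fish 14, at 3255 CPM of Ldim_g12384, was below Watson's Bay fish 17, at 3476 CPM. The other Crest fish were above it. The Crest fish 15, at 18268 CPM of Ldim_g12384, was nearly as high as Clam Gardens fish 9, at 18885 CPM on this scale. Low-density Watson's Bay fish 17 was below Clam Gardens fish 8 in Ldim_g12384, at 3476 against 3717 CPM. It was above Clam Gardens fish 8 in Ldim_g22111 (5544 against 5031 CPM), rank 3 (6771 against 6758) and rank 4 (1159 against 1089). Watson's Bay fish 17 and 20 were above every Osprey fish in all 4 models. In Ldim_g12384 fish 20 had 2995 CPM, against at most 2639 in Osprey fish. Watson's Bay fish 19, at 516 CPM of Ldim_g12384 from 2 counts, lowered that site's mean and was not above the Osprey range in the first 3 models. In the model of rank 4, Watson's Bay fish had 1032 to 1159 CPM (fish 19 from 4 counts), above the Osprey range of 230 to 649 CPM. The Crest fish 14, at 453 CPM, was inside that Osprey range.

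Ldim_g19793 and the model of rank 7 had opposite signs in the pairs. Ldim_g19793 averaged 50.1 ± 86.7 CPM at Clam Gardens, against 755 ± 306 at Osprey, while The Crest fish had 757 ± 159 CPM, against 506 ± 475 at Watson's Bay. The log2 difference was -3.74 (SE 0.82) between Clam Gardens and Osprey and 0.55 (SE 0.55) between The Crest and Watson's Bay. Low levels were thus found in Clam Gardens fish and in Watson's Bay fish 20, with 1 count. Watson's Bay fish 19 had 2 counts, but in a library too small to read a level from. The model of rank 7 had a log2 difference of 0.73 (SE 0.15) between Clam Gardens and Osprey and -0.11 (SE 0.16) between The Crest and Watson's Bay. Ldim_g7292 was lower on the high-density side of both pairs, by log2 -0.74 (SE 0.28) and -0.34 (SE 0.29), neither past the threshold in this fit. Its means were 6360 ± 924 CPM at Clam Gardens, 10614 ± 1595 at Osprey, 5272 ± 2002 at The Crest and 6182 ± 4110 at Watson's Bay. The mean of low-density Watson's Bay was thus near that of Clam Gardens, but its fish lay far apart. Watson's Bay fish 17, at 10770 CPM, was inside the Osprey range of 8800 to 13167 CPM. Watson's Bay fish 20, at 4939 CPM, was below every Clam Gardens fish, and fish 19 had 2837 CPM from 11 counts. Without Watson's Bay fish 19 the log2 difference of Ldim_g7292 between The Crest and Watson's Bay was -0.58 (SE 0.28, edgeR adjusted p = 0.820).

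**Figure D5:**
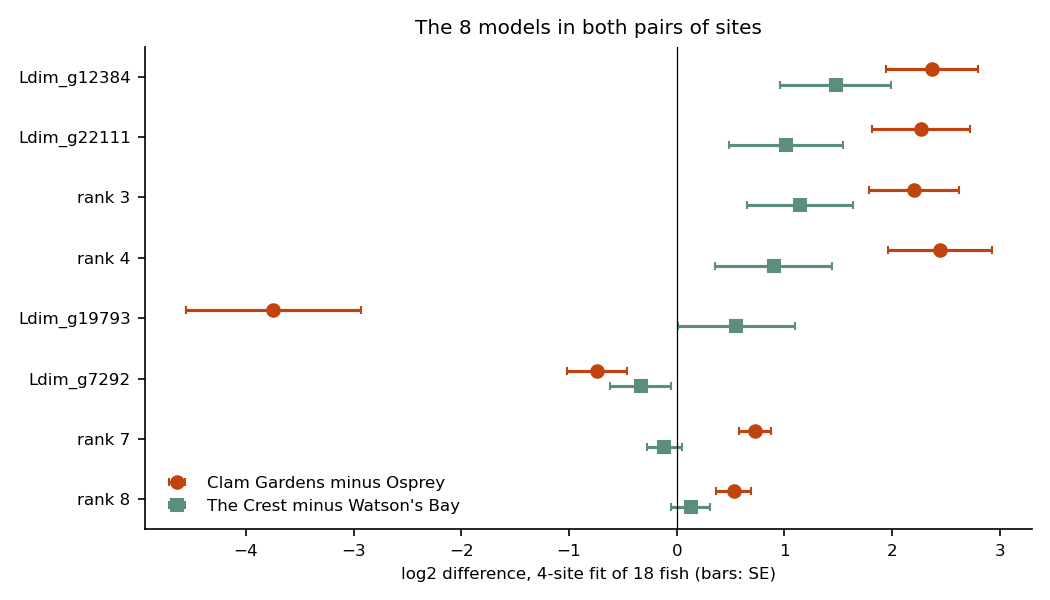
Log2 difference (horizontal axis, bars show SE) of the 8 models called between Clam Gardens and Osprey, from the fit of all 18 fish, for that pair and for The Crest minus Watson's Bay. The first 4 models are positive in both pairs, and Ldim_g19793 is at -3.74 in one and 0.55 in the other.

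Whether the pairs differed was tested directly, as the Clam Gardens minus Osprey difference less the difference of The Crest from Watson's Bay. Of 996 models, 0 (0.00%) passed with edgeR, and 56 (5.62%) had an unadjusted p under 0.05. Ldim_g19793 came closest to the threshold (log2 -4.30, SE 1.01, edgeR adjusted p = 0.266), and without Watson's Bay fish 17 it passed (log2 -6.95, adjusted p = 0.00158). The Watson's Bay fish then left, 19 and 20, had 2 and 1 counts. For Ldim_g12384 this difference was 0.90 (SE 0.66, adjusted p = 0.833), and for the model of rank 7 it was 0.84 (SE 0.22, adjusted p = 0.290). With all fish, none of the 8 models was shown to differ between the pairs.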

How the data were processed

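RNA was profiled from 1 forebrain slice per fish. The authors deposited raw counts, whole numbers without normalization, in 2 tables per fish: 28134 Labroides gene models with 5 summary entries, and 26788 tilapia transcripts. Per the submitters' processing notes, cutadapt 2.8, BWA and SAMtools were used; the sources used here give neither their roles nor the counting program, strand setting or build. Summary entries stayed out of library sizes and tests.

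For the 10 fish, edgeR 4.0.16 (R 4.3.3) took these counts through filterByExpr (minimum count 10, here 271 CPM in at least 3 fish for gene models), TMM, and the quasi-likelihood F test, not robust, with Benjamini-Hochberg adjustment over all tested rows. The filter kept 706 gene models, with 69.1% of gene counts, and 542 transcripts. SE is the log2 difference over the square root of F. Alternatives used DESeq2 1.42.0, limma 3.58.1, other filters, scalings and covariates, and each fish left out. Exact permutation tests took all 120 choices of 3 of 10 fish, on log2(CPM + 10) for gene models, and doubled the smaller tail for a two-sided p. The test was tried on simulated counts. None of the 45 pairs of libraries was identical, and chi-square over its degrees of freedom was at least 1.35 for gene models. P-values treat each fish as 1 replicate. Those of edgeR, with the SE and intervals taken from the same fits, draw the spread of each model towards that of the others. They thus do not measure its own spread alone.

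The fish, comparisons and lists were chosen with earlier results of these data known. Named identifiers are the 2 positive and the 2 negative of smallest p in each table, called or not. Pathway and marker lists could not be matched to identifiers and were not used.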

Additional observations from a re-analysis of the deposited data

Results flagged for a closer look

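Among the 7 Osprey fish, fish 5 stood apart in Ldim_g19793, at 1490 CPM against 909 CPM in the next fish, a gap of 0.608 of the whole range. It was the only one singled out in 22 sets of Osprey values by Dixon's rule at a 5% level, which sets the gap against the whole range. That level assumes independent normal values, which values from the same fish need not be. The share that chance would single out is thus not known. Leaving it out did not end the call of Ldim_g19793.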

How the results depend on the processing

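The main fit called 6 higher and 2 lower of 706 gene models tested. With no expression filter it called 27 and 3 of 12679, and with a filter of CPM above 100 in at least 3 fish 10 and 2 of 1878. Robust dispersion gave 3 higher and 2 lower of 706, and limma-voom 6 and 1 of 706. The 4-site fit of 18 fish gave 10 higher and 1 lower of 996. Without Watson's Bay fish 19 that fit gave 9 and 1 of 1115. The calls ranged from 4 to 10 higher and from 1 to 3 lower when each fish was left out, with 665 to 830 models tested. With DESeq2 all 8 calls remained among its 10 of 4806 tested. With the 4 models of smallest p removed before scaling, an alternative chosen after seeing the data, the other 4 calls remained. For tilapia transcripts the main fit called 0 higher of 542 tested. This became 4 of 18966 with no filter, 2 of 2100 with the CPM filter and 1 of 542 with robust dispersion. It was 0 to 1 of 517 to 655 tested with a fish left out. The cause of these changes was not tested. The models called between the pairs of sites numbered 0 to 1 of 958 to 1170 tested. None of the 268 values of single models or transcripts under the alternatives turned its direction. These rows were picked for small p in the same fish, so a turn was unlikely from the start. Of the called values 26 no longer passed, and 5 others now did, all 5 for ENSONIT00000014467.1.

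With each fish left out, the Clam Gardens minus Osprey difference ran from -8249 to 55.6 gene counts, from -0.629 to -0.445 points in the share of records in gene models, from -0.294 to 0.138 points outside them (turned by leaving out Clam Gardens fish 8, and Osprey fish 5 at 0.0177), from -0.328 to -0.216 points of low mapping quality, from 0.597 to 1.15 points not aligned, from -1116 to -321 gene models detected, from 8.15 to 11.2 tilapia counts per 100, and from 2.92 to 5.30 points in the 100 most abundant models. Without Osprey fish 7, the gene-model, mapping-quality, tilapia (10.7) and abundant-model (4.32) differences passed. With the smaller tail doubled, leaving out a Clam Gardens fish allows no exact p under 0.0556, so those fits could not pass this test. At this depth 3 counts are 54.9 to 115 CPM over all gene models, which limits what can be said of scarce models. No paired analysis was possible because the labels give the fish of the 2 sites no shared replicate number.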
